A study of Mus musculus with 6 samples.

Results

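Stanniocalcins are secreted glycoproteins first known from a calcium-lowering gland of bony fish, and mammals carry a pair of them, Stc1 and Stc2. Both proteins bind and inhibit the pappalysins PAPP-A and PAPP-A2, the metalloproteinases that cleave IGF binding proteins and so release insulin-like growth factors. Stanniocalcin 1 is also known for effects on calcium and phosphate handling and is induced by hypoxia, and stanniocalcin 2 is a target of the unfolded protein and hypoxia responses. The genes described here are the 2 of the 55487 rows of the count table that carry these symbols, and both passed the filter on low counts. They were proposed with values of the same comparison in view, so their own differences between genotypes are given as a description with no test.

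Bulk RNA-seq was performed on aortas of 3 Prdm16 iSM KO mice (Myh11-CreERT2+; Prdm16 F/F) and 3 control mice (Myh11-CreERT2+; Prdm16 W/W), all male and maintained on a C57BL/6 background. Both groups carried the smooth muscle Cre transgene and received tamoxifen at 8 weeks of age, 1 mg a day for 10 injections, followed by 2 weeks of washout and 60 further days without other treatment. The Cre acts in smooth muscle cells, so other cells of the wall keep Prdm16 in the iSM KO mice, and the adventitia was dissected off before RNA extraction. The libraries held 24911609 to 40460467 estimated counts, with control 3 the shallowest, and values are given as normalized CPM (counts scaled to a common library total) after edgeR's TMM scaling. The abundant RNAs with the symbols Rn7s1, Rn7s2, Rn7sk or Rn7sl1, summed, took 24.8% to 28.1% of counts in controls and 22.8% to 24.1% in iSM KO, and controls differed more among themselves (chi-square per degree of freedom 47.8 to 70.5 for pairs of libraries) than iSM KO libraries did (12.2 to 19.4). The part of either in the values below was not tested. Prdm16, the targeted gene, fell from a control mean of 195 ± 24.5 CPM to 95.4 ± 16.5 CPM in iSM KO (mean ± SD of 3 mice), a log2 fold change of -1.03 (edgeR's quasi-likelihood test, FDR = 0.00265), and its floxed exon 9 cannot be told apart in counts of the whole gene. The smooth muscle markers Myh11, Acta2, Tagln, Cnn1, Smtn, Lmod1, Myocd and Synpo2 summed to 23860 to 28570 CPM in controls and 25250 to 27900 CPM in iSM KO. The estimate was higher in iSM KO for 6 of the 8 and lower for 2. Of the 8, 1 passed an FDR of 0.05, or 12.5% against 7.56% of all genes. It was Myocd, higher in iSM KO (log2 fold change 0.65, edgeR FDR = 0.0109).

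Stc1 (ENSMUSG00000014813) lies on the plus strand of chromosome 14 of GRCm38, from 69029238 to 69041804, and Stc2 (ENSMUSG00000020303) on the minus strand of chromosome 11, from 31357307 to 31370074. In the GENCODE annotation the coding transcripts of both genes have 4 exons, of 4197 bases for Stc1 and 3940 for Stc2, and most of each transcript is the 3′ untranslated region (3304 and 2840 bases). Exons 2 and 3 are wholly coding and have the same lengths in both genes, 143 and 212 bases, and begin at the same codon position. Exon 2 of both genes is shown because it can be laid side by side without a gap, as exon 3 also can but with a lower share of identical bases, and because reads can be assigned to the right gene only as far as these sequences differ. Capitals mark the bases that are the same in both, 82 of 143, or 57.3%.
Stc1 exon 2, chr14:69031503-69031645, plus strand: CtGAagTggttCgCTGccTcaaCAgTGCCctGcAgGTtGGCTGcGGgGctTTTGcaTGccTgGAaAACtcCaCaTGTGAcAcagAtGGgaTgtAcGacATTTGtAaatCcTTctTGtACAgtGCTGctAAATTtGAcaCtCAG
Stc2 exon 2, chr11:31367726-31367868, minus strand: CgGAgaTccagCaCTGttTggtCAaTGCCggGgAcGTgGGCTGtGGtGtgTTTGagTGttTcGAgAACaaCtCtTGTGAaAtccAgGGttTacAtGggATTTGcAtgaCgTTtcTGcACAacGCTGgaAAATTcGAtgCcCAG

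The capitals fall unevenly over the codons of exon 2. The bases were the same at 66.0% of codon positions 1, 72.9% of codon positions 2 and 33.3% of codon positions 3. In exon 3 the pair shared 105 of 212 bases (49.5%), and over an alignment of the whole coding sequences 57.8% of 732 aligned positions. The longest run of identical bases anywhere in the 2 coding transcripts was 12, so a sequenced fragment of ordinary length from Stc1 does not match Stc2 along its length. Of the 31-base words of the Stc2 transcript, 0 of 3910 occurred in transcripts of other genes. For Stc1, 201 of 4167 did, of which 199 lie in Gm41192, an antisense RNA gene that overlaps Stc1's first exon from the minus strand (chromosome 14, 69019434 to 69029652), and 2 in Srek1. Whether the counting used strand is not given in the sources used here, and the part of antisense reads in the Stc1 counts was not tested. Gm41192 held 1, 0 and 0 counts in controls 1 to 3 and 0, 1 and 3 in iSM KO 1 to 3.

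Stc1 was the member that differed between the genotypes. It was counted 86, 98 and 43 times in controls 1 to 3 and 842, 666 and 617 times in iSM KO 1 to 3. As normalized counts this was 2.57, 2.55 and 1.80 CPM in controls and 20.7, 19.1 and 16.9 CPM in iSM KO. All 3 iSM KO aortas were far above all 3 controls, and the lowest iSM KO value was 6.58 times the highest control value. The mean was 2.31 ± 0.44 CPM for the controls and 18.9 ± 1.89 CPM for the iSM KO group (SD, n = 3 each), a ratio of 8.18. The fitted log2 fold change was 3.01 (standard error 0.16). By log2 fold change Stc1 ranked 33rd from the top among the 16565 genes tested.

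The spread of Stc1 among mice was small in both groups. The highest value was 1.42 times the lowest among controls and 1.22 times among iSM KO aortas, and the coefficient of variation among controls was 18.9%. The count of 43 in control 3 was the least precise, with an exact 95% Poisson interval of 31.1 to 57.9 counts, which like the other such intervals covers counting error only.

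Stc2 did not follow Stc1. It was counted 359, 159 and 111 times in controls 1 to 3 and 290, 303 and 253 times in iSM KO 1 to 3, or 10.7, 4.14 and 4.65 CPM in controls and 7.12, 8.68 and 6.93 CPM in iSM KO. The groups overlapped, because control 1 lay above every iSM KO aorta while controls 2 and 3 lay below every one of them. The mean was 6.50 ± 3.66 CPM for the controls and 7.58 ± 0.96 CPM for the iSM KO group (SD, n = 3 each), and the fitted log2 fold change was 0.21 (standard error 0.32). This estimate depended on single controls, at 0.79 without control 1, -0.036 without control 2 and 0.033 without control 3. The coefficient of variation was 56.3% in controls and 12.7% in iSM KO.

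**Figure D1:**
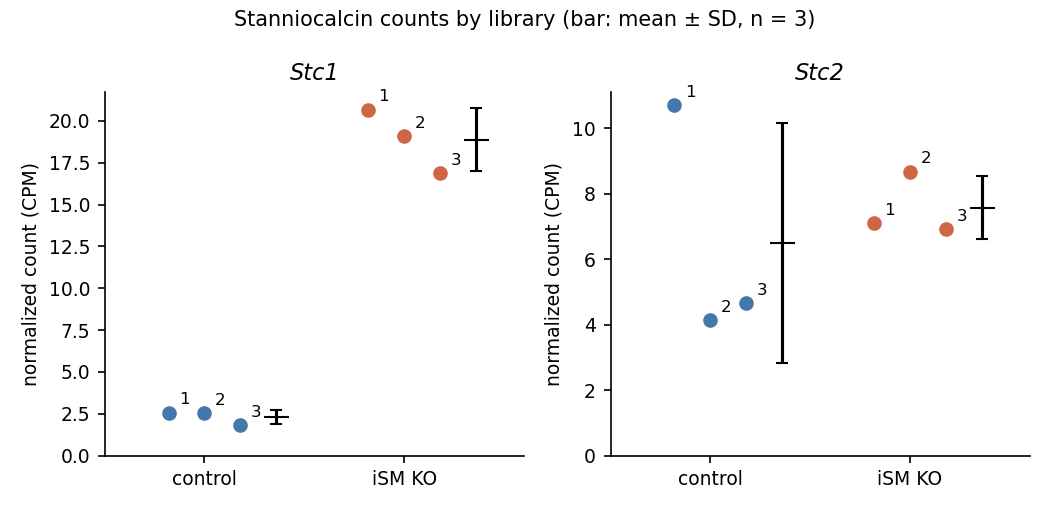
Normalized counts (CPM, linear axes from 0) of Stc1 and Stc2 in each aorta, with points numbered by replicate and black bars giving the mean ± SD (n = 3). The 3 iSM KO values of Stc1, from 16.9 to 20.7 CPM, sit far above the controls, whereas for Stc2 control 1 at 10.7 CPM is the highest of all libraries and controls 2 and 3 are the lowest.

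Markers of other cells differed among the controls as well. The summed adipocyte markers (8 genes, among them Adipoq, Plin1 and Cfd) were at 39.6 CPM in control 1 against 211 and 139 CPM in controls 2 and 3, and the summed fibroblast markers (8 genes, among them Pdgfra and Dcn) at 489 against 286 and 357 CPM. The endothelial sum was 874 CPM in control 1 against 1043 and 499 CPM in the others, the macrophage sum 36.7 against 35.4 and 32.0 CPM, the cardiomyocyte sum 125 against 156 and 141 CPM, and the neuron and Schwann cell sum 9.88 against 6.74 and 9.69 CPM. Control 1, with the most Stc2, was thus lowest in some sums, highest in others and in the middle for endothelial markers. The part of these cells in the Stc2 values was not tested. In bulk aorta, fewer cells of a type and less RNA per cell cannot be told apart, for the stanniocalcins as for the markers.

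Between the genotypes, 6 of 7 tested adipocyte markers (85.7%) had an FDR under 0.05, all lower in iSM KO. Over all genes 7.56% did, the share to set beside each count of markers below. The summed adipocyte level was 39.6 to 211 CPM in controls and 16.2 to 21.3 CPM in iSM KO. The endothelial markers (8 genes, among them Pecam1 and Cdh5) ranged from 499 to 1043 CPM in controls and from 260 to 788 CPM in iSM KO, and the macrophage markers (8 genes, among them Adgre1 and Cd68) from 32.0 to 36.7 and from 13.7 to 38.7 CPM, with 0 of 8 past the FDR in each list by edgeR's test. The estimate was lower in iSM KO for 8 of 8 markers in both lists, with median log2 fold changes of -0.66 (endothelial) and -0.54 (macrophage). The lists whose sum was higher in every iSM KO aorta, as Stc1 was, were the fibroblast and the cardiomyocyte markers. Of the 8 fibroblast markers 1, Col14a1, passed the FDR (12.5%) and 7 had a lower estimate in iSM KO. The fibroblast sum was 286 to 489 CPM in controls and 566 to 600 CPM in iSM KO, but without Col14a1, left out after its values were seen, it was 209 to 373 CPM and 144 to 228 CPM. Of 5 tested cardiomyocyte markers 2, Actn2 and Ryr2, passed the FDR (40%), both higher in iSM KO. The cardiomyocyte sum was 125 to 156 CPM and 168 to 222 CPM, most of it Ryr2, a calcium release channel. Ttn had 167 to 419 counts a library. Of the markers more particular to heart muscle, Myh6 had 10 to 60 counts a library, Tnni3 10 to 29 and Nppa 2 to 18, whereas Myl7 was at 0 in 5 and Myl2 in 4 of 6 libraries. Of 6 tested markers of neurons and Schwann cells 1 passed the FDR (16.7%), higher in iSM KO, and all 6 had a higher estimate. The sum of this list was 6.74 to 9.88 CPM in controls and 9.28 to 19.8 CPM in iSM KO. The part of these cells in the Stc1 values was not tested.

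Levels of the pair can be compared once each is divided by its exon length, 4197 bases for Stc1 and 5175 for Stc2 with all annotated exons joined. On that scale Stc1 was at 0.61, 0.61 and 0.43 CPM per kb in controls 1 to 3 and 4.92, 4.55 and 4.03 in iSM KO 1 to 3. Stc2 was at 2.07, 0.80 and 0.90 CPM per kb in the same controls and 1.38, 1.68 and 1.34 in the iSM KO aortas. Stc2 was thus the more abundant of the pair in each control and Stc1 in each iSM KO aorta.

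The ratio of Stc1 to Stc2 within a library does not depend on the scaling between libraries. It was 0.30, 0.76 and 0.48 in controls 1 to 3 and 3.58, 2.71 and 3.01 in iSM KO 1 to 3. Stc1 made up 32.8% ± 10.2 of the summed level of the pair in controls and 75.4% ± 2.59 in iSM KO (SD, n = 3 each), and the sum itself was 1.81 ± 0.76 and 5.96 ± 0.52 CPM per kb. Among the 16534 tested genes with an annotated length, 19.6% had a lower mean level per kb than Stc1 in controls and 65.6% in iSM KO, against 34.7% and 38.4% for Stc2.

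**Figure D2:**
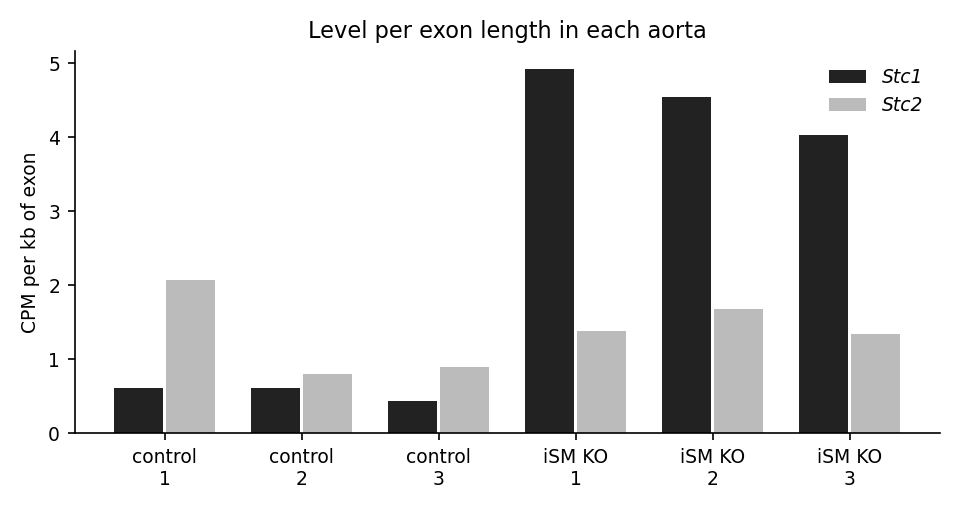
Level of Stc1 (dark bars) and Stc2 (light bars) in each aorta, in CPM per kb of annotated exon, on an axis from 0. Stc2 is the taller bar in the 3 controls and Stc1 in the 3 iSM KO aortas, where the Stc1 level lies between 4.03 and 4.92.

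The background for these values is the same fit over all genes. Of the 16565 genes tested, 7.56% had an FDR under 0.05, 4.26% higher and 3.30% lower in iSM KO, and 1.40% and 1.38% did so with a change over 2-fold upwards and downwards. The groups did not overlap for 15.0% of genes with iSM KO higher and 13.0% with iSM KO lower, and the median log2 fold change was -0.014. Nothing is read from these shares for Stc1 and Stc2 themselves, which were chosen on this contrast.

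The first list is that of the pappalysins that stanniocalcins inhibit and of the IGF axis that pappalysins act on. Of 16 genes 15 were tested, 1 was higher, 1 was lower and 13 did not pass an FDR of 0.05, or 13.3% past it against 7.56% of all genes, with a median log2 fold change of 0.075. DESeq2 called 5 of the 15 (33.3%), where it called 10.3% of all genes. These were Igf1r and Igf2, higher in iSM KO, and Igfbp4, Igfbp6 and Irs2, lower. Igfbp4, which encodes the IGF binding protein that PAPP-A cleaves, was at 237, 148 and 183 CPM in controls 1 to 3 and 96.2, 89.1 and 116 CPM in iSM KO 1 to 3. It fell in iSM KO with no overlap between the groups (log2 fold change -0.92, standard error 0.17, edgeR FDR = 0.0118), though the FDR was 0.0510 without iSM KO 1 and 0.0640 without iSM KO 2. Igf1r, the receptor for IGF-1, rose from 232 ± 13.4 to 295 ± 20.6 CPM (SD, n = 3 each), a log2 fold change of 0.34 (edgeR FDR = 0.0463), but did not pass in any of the 6 fits that left out 1 library, where the FDR ranged from 0.0527 to 0.197.

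The enzymes themselves were covered by few counts, 26 to 88 a library for Pappa and 45 to 177 for Pappa2. Pappa had means of 1.72 ± 0.57 CPM (control) and 2.29 ± 0.26 CPM (iSM KO, SD, n = 3 each), a log2 fold change of 0.40 (standard error 0.27, edgeR FDR = 0.438). Pappa2 was at 5.28, 2.16 and 2.68 CPM in controls 1 to 3 and 2.09, 1.29 and 2.16 CPM in iSM KO 1 to 3, with its highest value, like that of Stc2, in control 1 (log2 fold change -0.87, standard error 0.36, edgeR FDR = 0.196). Igfbp5, the other main substrate, was at 331 ± 106 and 361 ± 110 CPM (SD, n = 3 each, edgeR FDR = 0.808). Of the ligands, Igf1 was at 9.18 ± 2.03 and 11.3 ± 2.34 CPM (SD, n = 3 each, edgeR FDR = 0.408). Igf2 was at 20.9 ± 7.21 CPM (control) and 34.9 ± 7.97 CPM (iSM KO, SD, n = 3 each), a log2 fold change of 0.74 (edgeR FDR = 0.0992).

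The list on calcium entry, calcium sensing and phosphate transport had 15 of 20 genes tested. Of these 2 were higher, 0 were lower and 13 did not pass. This was 13.3% past the FDR against 7.56% of all genes, with a median log2 fold change of -0.0045. DESeq2 called 2 of the 15, or 13.3%, against 10.3% of all genes, and limma-voom 1 of the 15 against 7.51%. Ank, which encodes a membrane protein that lets pyrophosphate, an inhibitor of calcification, out of the cell, was at 111, 106 and 114 CPM in controls 1 to 3 and 177, 168 and 194 CPM in iSM KO 1 to 3. It rose by 0.70 on the log2 scale (standard error 0.08, edgeR FDR = 0.00136) and passed in each of the 6 fits that left out 1 library. Stim2, a calcium sensor of the endoplasmic reticulum, rose from 23.7 ± 0.48 to 30.7 ± 3.16 CPM (SD, n = 3 each, log2 fold change 0.37, edgeR FDR = 0.0465), but passed in 0 of those 6 fits (FDR from 0.0533 to 0.161).

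The other genes of this list fixed by name had small estimates. Stim1, the main sensor of store-operated calcium entry, had a log2 fold change of 0.078 (standard error 0.08, edgeR FDR = 0.593) and Orai1, the channel it opens, one of -0.0045 (standard error 0.17, edgeR FDR = 0.992). The sodium-phosphate cotransporters Slc20a1 and Slc20a2 had log2 fold changes of 0.18 (standard error 0.11) and 0.14 (standard error 0.08), with edgeR FDRs of 0.378 and 0.320. Casr, the calcium-sensing receptor gene, had 0 counts in all 6 libraries, which allows up to 3 counts in each, or 0.0736 to 0.126 CPM.

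The last lists hold responses known to induce stanniocalcins. Of the 20 genes of the unfolded protein and integrated stress response 0 passed an FDR of 0.05 in edgeR's test, against 7.56% of all genes. By unadjusted p, 6 were under 0.05. The share of all genes under that p was not computed, so this count has no background to be read against. With limma-voom 0 passed, against 7.51% of all genes, and with DESeq2 1 passed (Ppp1r15a, lower), against 10.3%. Their median log2 fold change was -0.089. Atf4, a transcription factor of this response, had a log2 fold change of -0.18 (standard error 0.15, edgeR FDR = 0.525), and Hspa5, the chaperone BiP, one of -0.087 (standard error 0.20, edgeR FDR = 0.834).

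Of the 20 hypoxia response genes 1 was higher and 1 lower, and 18 did not pass, or 10% past the FDR against 7.56% of all genes, with a median log2 fold change of 0.029. DESeq2 called 5 of the 20, or 25%, against 10.3% of all genes, and limma-voom 1 of the 20 against 7.51%. The calls of DESeq2 were P4ha1 and Epas1, higher in iSM KO, and Ndrg1, Pdk1 and Ddit4, lower. Ndrg1, a stress-responsive gene, was at 113, 116 and 98.5 CPM in controls 1 to 3 and 47.8, 53.0 and 58.9 CPM in iSM KO 1 to 3. It fell by 1.04 on the log2 scale (standard error 0.10, edgeR FDR = 5.59e-04) and passed in each of the 6 fits that left out 1 library. P4ha1, a subunit of collagen prolyl 4-hydroxylase, rose from 34.2 ± 4.55 to 49.0 ± 7.24 CPM (SD, n = 3 each, log2 fold change 0.52, edgeR FDR = 0.0467), but not without control 1 (FDR = 0.120), control 3 (0.109), iSM KO 1 (0.165) or iSM KO 2 (0.168). Hif1a, the oxygen-regulated factor, had a log2 fold change of 0.078 (standard error 0.08, edgeR FDR = 0.613), and its target Vegfa one of -0.29 (standard error 0.20, edgeR FDR = 0.424).

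**Figure D3:**
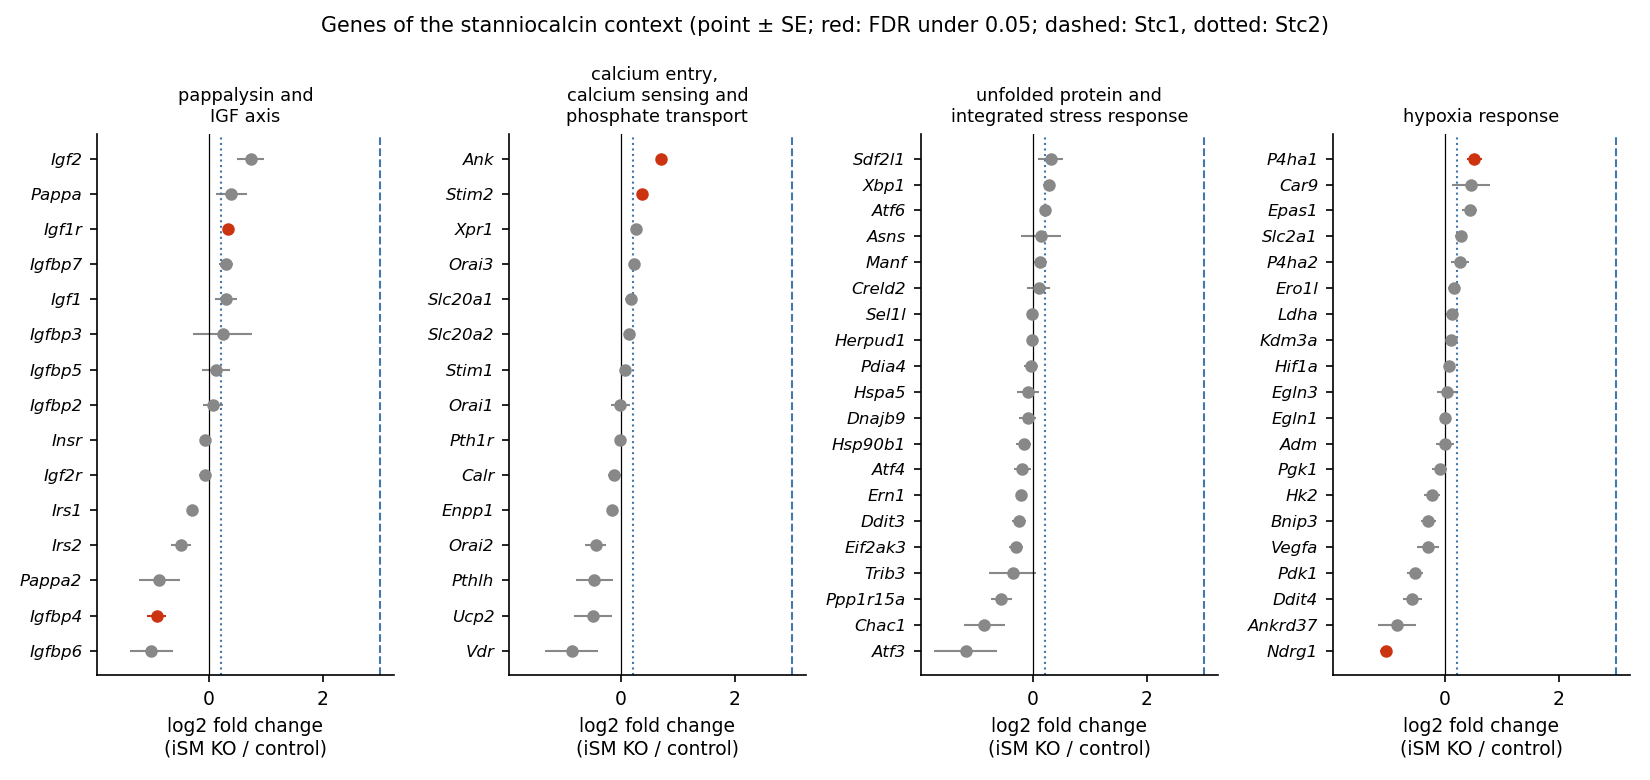
Log2 fold change (iSM KO over control, point ± standard error) of every tested gene of the 4 lists, with red points past an FDR of 0.05 in edgeR's test. The dashed line marks Stc1 at 3.01 and the dotted line Stc2 at 0.21, and no gene of the lists lies near the dashed line.

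The position of the genes was examined through their neighbours. Within 1 Mb of Stc1 19 other genes were tested and within 1 Mb of Stc2 16. In edgeR's test 0 of these 35 passed an FDR of 0.05, against 7.56% of all genes. By unadjusted p, 5 were under 0.05, a count with no share of all genes beside it, from which nothing is read. DESeq2 called 0 of the 32 it gave an adjusted p, against 10.3% of all genes. With limma-voom 1 of the 35 passed, Gm37513 near Stc1, against 7.51%. The medians of the log2 fold change were -0.013 around Stc1 and 0.041 around Stc2.

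The genes whose profile was closest to that of Stc1 were found from the log2 CPM over the 6 libraries, each centred on its own mean, by the root mean square difference. They were Ankrd1 (0.17), which encodes a mechanosensitive cardiac ankyrin repeat protein, Adra2b (0.22), an alpha-2 adrenergic receptor, Fst (0.24), which encodes the activin antagonist follistatin, F13a1 (0.28), the A subunit of coagulation factor XIII, and Zfp811 (0.28), a zinc finger gene, with Pearson's r from 0.985 to 0.996 over 6 libraries. Ankrd1 was at 5.79, 7.86 and 5.12 CPM in controls 1 to 3 and 48.6, 55.1 and 39.0 CPM in iSM KO 1 to 3. Fst, like Stc1, was lowest in control 3 (1.34 CPM) and highest in iSM KO 1 (25.8 CPM). Adra2b rested on 2, 2 and 0 counts in the controls. The log2 CPM used here held a prior count of 2, which weighs heavily on so few counts. The fitted log2 fold change of Adra2b was 4.12, against 3.01 for Stc1. The libraries share the genotype step that Stc1 was chosen for, so these correlations are a description.

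For Stc2 the closest genes were Atcay (0.10), D430018E03Rik (0.14), Tspan15 (0.14), Gm28720 (0.15) and Gm26703 (0.16), with Pearson's r from 0.94 to 0.98 over 6 libraries. Atcay encodes caytaxin, a protein known from neurons, and was at 2.69, 1.17 and 1.22 CPM in controls 1 to 3. Tspan15, a tetraspanin, was at 4.69, 2.06 and 2.43 CPM in the same controls and 3.85, 3.64 and 3.70 CPM in iSM KO 1 to 3. In each of the 5 genes control 1 was the highest of the controls and all iSM KO values lay above controls 2 and 3, and in all but Gm26703 they also lay below control 1, as in Stc2. The 5 were picked for a profile like that of Stc2, so this likeness is a description. Levels were low for Gm28720 (0.31 and 0.29 CPM in controls 2 and 3) and Gm26703 (0.36 and 0.50 CPM).

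**Figure D4:**
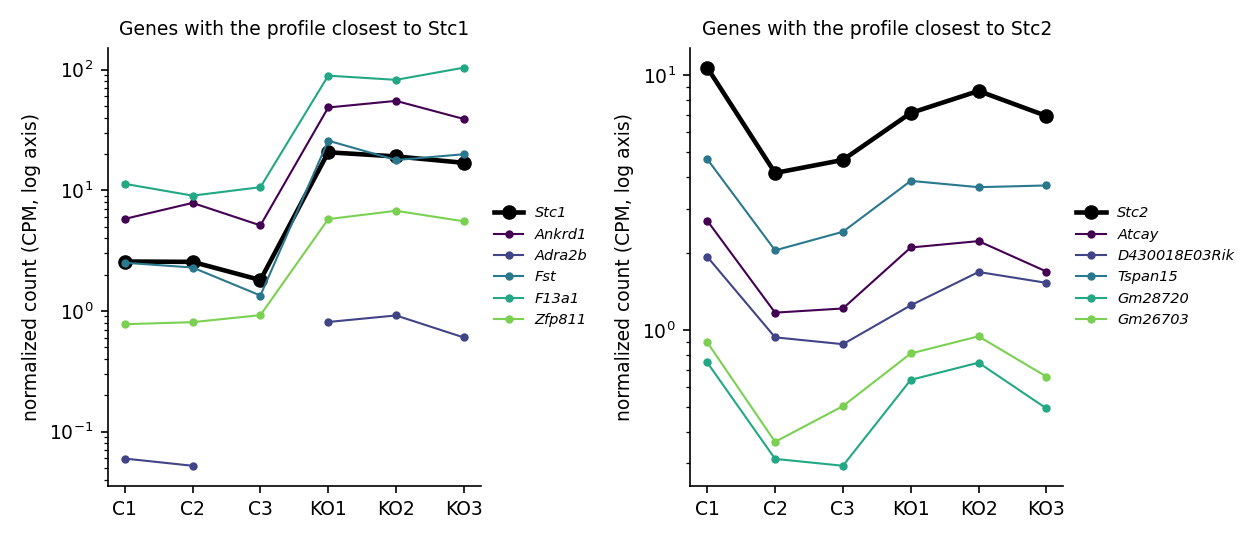
Normalized counts (CPM, log axis) of Stc1 and of Stc2 (thick lines) and of the 5 genes closest to each in the 6 libraries (C, control), with lines joining the values of a gene and a count of 0 left out. The left panel shows a step between control 3 and iSM KO 1, and the right panel shows control 1 high and controls 2 and 3 low.

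**Figure D5:**
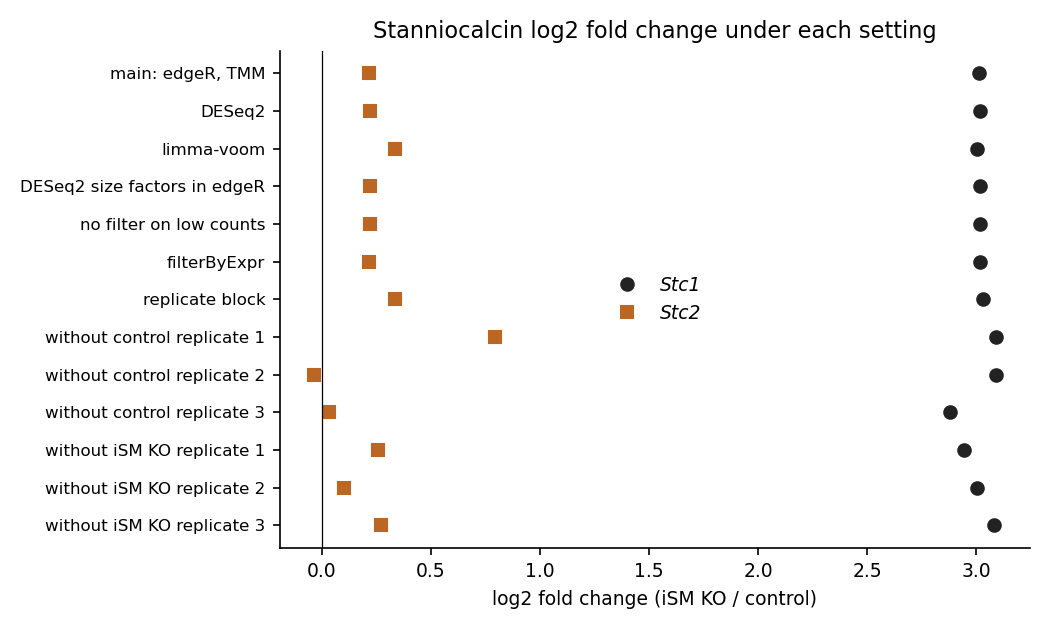
Log2 fold change (iSM KO over control) of Stc1 (circles) and Stc2 (squares) in the main fit and under each other setting. Stc1 lies between 2.88 and 3.09 throughout, and Stc2 between -0.036 and 0.79, with both ends set by a control left out.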

How the data were processed

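Aortic RNA of 3 control and 3 iSM KO mice was depleted of ribosomal RNA and sequenced as paired ends. The authors quantified reads with Illumina DRAGEN against the Ensembl mouse reference (mm10) and deposited estimated counts per gene, not normalized and not filtered. How reads matching several genes were shared is not given in the sources used here. Every count column was matched to a sample by its name. Counts were rounded, and the 16565 genes with over 10 counts in all samples of a group were kept, the filter of the study. Differences were tested across all these genes with edgeR 4.0.16 in R 4.3.3 (TMM, glmQLFit, glmQLFTest, no covariates) with Benjamini-Hochberg adjustment (FDR), where the study used DESeq2. The standard error is the log2 fold change over the square root of the F statistic. Per-kb levels used the joined exon length of GENCODE release M21 (GRCm38). The coding alignment used Biopython 1.88 and Poisson intervals SciPy 1.17.1. The scripts were tested on simulated data.

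The members and lists were chosen with earlier results of these data known. Genes named are Stc1, Stc2, Prdm16, all list or neighbouring genes past the FDR, 14 list genes set by name, the 5 closest profiles to each member, and genes overlapping a member. Markers, Srek1 and genes that passed the FDR only under another setting, among them Gm37513, are named besides. Alternatives were DESeq2 1.42.0, limma-voom (limma 3.58.1), DESeq2's size factors in edgeR, no low-count filter, filterByExpr, a replicate block, other windows and each library left out. The mice are separate animals per the study's methods.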

Additional observations from a re-analysis of the deposited data

How the results depend on the processing

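The log2 fold change of Stc1 ranged from 2.88 (without control 3) to 3.09 over the fits that left out 1 library, and that of Stc2 from -0.036 to 0.79, so the difference between them ranged from 2.30 to 3.13. In the other settings Stc1 lay between 3.01 and 3.03 and Stc2 between 0.21 and 0.34. Genes past the FDR numbered 1252, 516 to 1402 with a library left out, and changed genes (FDR under 0.05 and over 2-fold) 290 to 528, of which 162 to 243 higher and 128 to 317 lower, with the lowest of each without iSM KO 2. Without iSM KO 1, 624 passed the FDR and 133 were changed and lower. With no low-count filter 349 genes were lower instead of 229. Of the lists, the pappalysin and IGF list had 5 genes past the FDR with DESeq2 or no filter and 0 to 2 with a library left out. The calcium and phosphate list had 1 with limma-voom, 3 with no filter, where the phosphate cotransporter gene Slc34a1 was called higher too on 0 to 29 counts a library, and 1 to 2 with a library left out. The stress response list had 1 with DESeq2 and 2 with no filter, and 0 to 1 with a library left out. The hypoxia list had 5 with DESeq2 or no filter, 1 with limma-voom or filterByExpr, and 1 to 5 with a library left out. Neighbouring genes past the FDR were 0, but 1 with limma-voom or no filter, 2 within 2 Mb and 0 to 3 with a library left out. With the replicate number as a block, 775 genes passed the FDR, with 1 each in the pappalysin and IGF, the calcium and phosphate, and the hypoxia lists. The labels share only the number, and deviations of same-numbered libraries from their group means correlated at -0.13, -0.046 and -0.11, so the block stands for no known pairing. The causes of these shifts were not tested. Low counts limit Stc1 most in control 3, with 43 counts.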
